A study of Mus musculus with 4 samples.

Results

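The genes described here encode the machinery that brings nuclear-encoded proteins into mitochondria and the factors that put the respiratory chain complexes together. They were taken by symbol, as the rows named Timm, Tomm, Ndufaf, Sdhaf, Uqcc, Coa or Chchd followed by a digit, together with Sco1, Sco2, Surf1, Samm50, Pmpca, Pmpcb, Grpel1 and Lrpprc. The rule gave 60 of the 23238 symbols in the tables, and was set with earlier results of these data known. Each of the 60 was seen in at least 1 library, and 58 cleared the filter on low counts and entered the test.

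The libraries came from CD4+ T cells of mice, which the labels place on the C57BL/6j strain in both genotypes. There were 2 wild-type (WT) libraries and 2 libraries of a Pdk4 knockout (PDK4 KO). Pdk4 encodes a kinase of the mitochondrial matrix that switches off the pyruvate dehydrogenase complex, and the series asked which transcripts differ without it. Magnetic sorting gave naive cells from lymph nodes and spleen, and these were activated in culture through CD3 and CD28 with added IL-2 over 48 hours, in both genotypes alike, so that no unstimulated state was measured. Libraries were made from 500 ng of total RNA with a Lexogen QuantSeq kit, which reads the 3' ends of transcripts. The labels state neither the age or sex of the mice, nor which part of Pdk4 was deleted, nor whether replicates came from separate animals or cultures, and p-values therefore speak only of the spread among these libraries, part or all of which could be technical.

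Total counts lay between 8837810 and 9739624. Pdk4 itself had 1 and 0 counts in WT replicates 1 and 2 and 0 and 2 counts in KO replicates 1 and 2, under the floor of 3 counts in every library, so that its counts check nothing about the labels. Replicates were not copies of each other, since chi-square divided by its degrees of freedom was 4.89 between the WT and 4.99 between the KO libraries, and of 6.99 to 9.05 between genotypes. The CD4 coreceptor Cd4 stood at 251.5 and 254.5 CPM (counts scaled to the library's normalised total) in WT and 268.8 and 250.5 in KO, and all 10 listed CD4 T cell markers passed the filter. By the genotype test below 1 of the 10 rose, Cd5, at 283.4 and 265.8 CPM in WT against 322.4 and 350.5 in KO, and 0 fell. At an unadjusted p under 0.05, 2 were higher and 3 lower in KO (50% in all), against 13.5% of all tested genes. Markers of other cells differed between genotypes as well. For comparison, 1.21% of all tested genes fell and 1.45% rose by the genotype test. Of 10 tested B cell markers 8 fell in KO (4 without WT replicate 2 and 5 without KO replicate 2), and the summed level of that list was 231.8 and 266.2 CPM in WT against 132.1 and 140.7 in KO. The summed CD8 T and NK cell list was at 565.9 and 569.7 CPM against 406.3 and 361.9. There 1 of 10 tested markers fell, Gzma, at 219.4 and 219.0 CPM in WT against 76.1 and 51.2 in KO, which makes up most of the difference between the sums. The genotypes did not overlap for 4 of the 10 (40%), against 43.4% of all tested genes. The myeloid list was at 33.29 and 29.99 CPM against 12.1 and 21.0, and 1 of its 4 tested markers fell, Fcer1g, while Lyz2, Csf1r, Cd14, Itgam and Adgre1 were under 1 CPM in every library. Red cell markers varied between 35.9 and 197.2 CPM with no order by genotype. The part of these cells in the values below was not tested, and in bulk samples fewer cells of a type and less RNA per cell cannot be told apart.

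Most mitochondrial proteins are made in the cytosol and enter through the TOM complex of the outer membrane, which holds receptors and a channel. The TIM23 complex then carries proteins with a presequence into the matrix, where a motor pulls and a peptidase trims them, while small TIM chaperones guide hydrophobic proteins across the intermembrane space to the TIM22 complex or to the SAM complex of the outer membrane. Small proteins with paired cysteines, many of the CHCH family among them, are trapped in that space by oxidation through the receptor encoded by Chchd4. Once inside, respiratory chain subunits are joined by assembly factors that are not part of the finished enzyme. T cells enlarge their mitochondria and their respiratory capacity in the days after activation, a change that these libraries, all from activated cells, cannot show.

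The promoters of the members were described by short motifs, which the choice by symbol did not use. RefSeq promoter windows (GRCm38.p6), reaching from 250 bases before to 50 bases after a gene's start, were found for 53 of the 60 genes, in 55 windows. They were searched on both strands for motifs of factors known from nuclear control of mitochondrial genes. The ETS core CCGGAAG, the binding letters of the NRF2/GABP factor family, was in 21 of the 55 windows (38.2%), against 18.6% of 11684 windows of tested genes and 8.86% of all 32851 windows. The E-box CACGTG, which MYC and USF factors bind, was in 11 windows (20%), against 10% and 7.15%. The palindrome of NRF1, spelled by the capitals of the Ndufaf4 sequence below, was in 2 windows (3.64%, against 2.11% and 0.971%), and AAGATGGCG of YY1 in 1 (1.82%, against 3.21% and 1.4%). No match of one motif overlapped a match of another in these windows. Each match is a description of letters and not a mapped binding site.

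Matches per gene were counted for the members only, so no share of all genes stands beside the next count. At least 2 ETS matches before the start were found for 5 genes, namely Chchd5, Timm8a2, Tomm22, Tomm34 and Tomm70a. The 140 bases before the start of 4 of these are given to show how the matches lie, with Ndufaf4 for its NRF1 letters and Timm9 for its E-box, 5′ to 3′ on the strand of the gene and with matches in capitals.
Tomm22 (chr15:79670728-79670867, plus strand): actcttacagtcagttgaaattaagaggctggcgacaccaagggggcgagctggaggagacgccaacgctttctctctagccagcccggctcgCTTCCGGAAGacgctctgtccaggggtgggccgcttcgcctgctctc
Tomm70a (chr16:57121574-57121713, plus strand): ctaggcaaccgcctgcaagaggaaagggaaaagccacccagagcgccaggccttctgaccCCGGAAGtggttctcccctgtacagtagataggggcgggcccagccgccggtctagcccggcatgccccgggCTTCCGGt
Tomm34 (chr2:164071170-164071309, minus strand): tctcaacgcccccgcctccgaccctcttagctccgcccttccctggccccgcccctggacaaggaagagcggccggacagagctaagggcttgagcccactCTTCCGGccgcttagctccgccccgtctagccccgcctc
Chchd5 (chr2:129129560-129129699, plus strand): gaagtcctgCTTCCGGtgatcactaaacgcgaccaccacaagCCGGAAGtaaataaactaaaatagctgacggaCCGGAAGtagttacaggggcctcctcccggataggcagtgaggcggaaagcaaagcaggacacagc
Ndufaf4 (chr4:24897943-24898082, plus strand): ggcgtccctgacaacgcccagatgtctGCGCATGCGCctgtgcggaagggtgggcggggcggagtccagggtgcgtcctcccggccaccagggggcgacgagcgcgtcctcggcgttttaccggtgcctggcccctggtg
Timm9 (chr12:71136676-71136815, minus strand): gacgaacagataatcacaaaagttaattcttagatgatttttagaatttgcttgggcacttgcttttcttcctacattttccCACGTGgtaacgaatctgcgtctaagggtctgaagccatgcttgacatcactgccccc
In Tomm22 the matches on the minus and plus strand, beginning 47 and 44 bases before the start, overlap in 1 palindromic run. Tomm70a has them 80 and 8 bases before the start on opposite strands. Chchd5 has 3, at 131, 98 and 66 bases. Tomm34 has 2 annotated starts, and the window shown holds 1 match, 39 bases before its start. The NRF1 palindrome of Ndufaf4 begins 113 bases before the start, and the E-box shown for Timm9 begins 58 bases before it. All these starts are those of RefSeq. The last 7, 11 and 9 bases shown for Tomm22, Tomm70a and Timm9 lie inside the gene as GENCODE places it. For Tomm70a they include the match nearer to the start.

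Levels of the 58 tested genes spanned from 1.20 to 865.1 CPM as the mean over genotypes, with a median of 41.3 against 23.9 for all tested genes. Because each transcript gives reads at its 3' end only, these CPM values need no division by length, although ease of mapping still differs between genes. The 60 genes together held 0.461% to 0.482% of a library's counts, and their summed level was 4666 and 4875 CPM in WT and 4590 and 4678 in KO. Chchd10 contributed 18.4% of that sum, Chchd2 14.2% and Tomm7 6.84%, so that 3 genes made up 39.5% of it. Complex I assembly factors were the lowest group, with a median of 11.4 CPM. The TOM and SAM list and the TIM22 and small TIM list were the highest, with medians of 78.2 and 75.3.

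**Figure D1:**
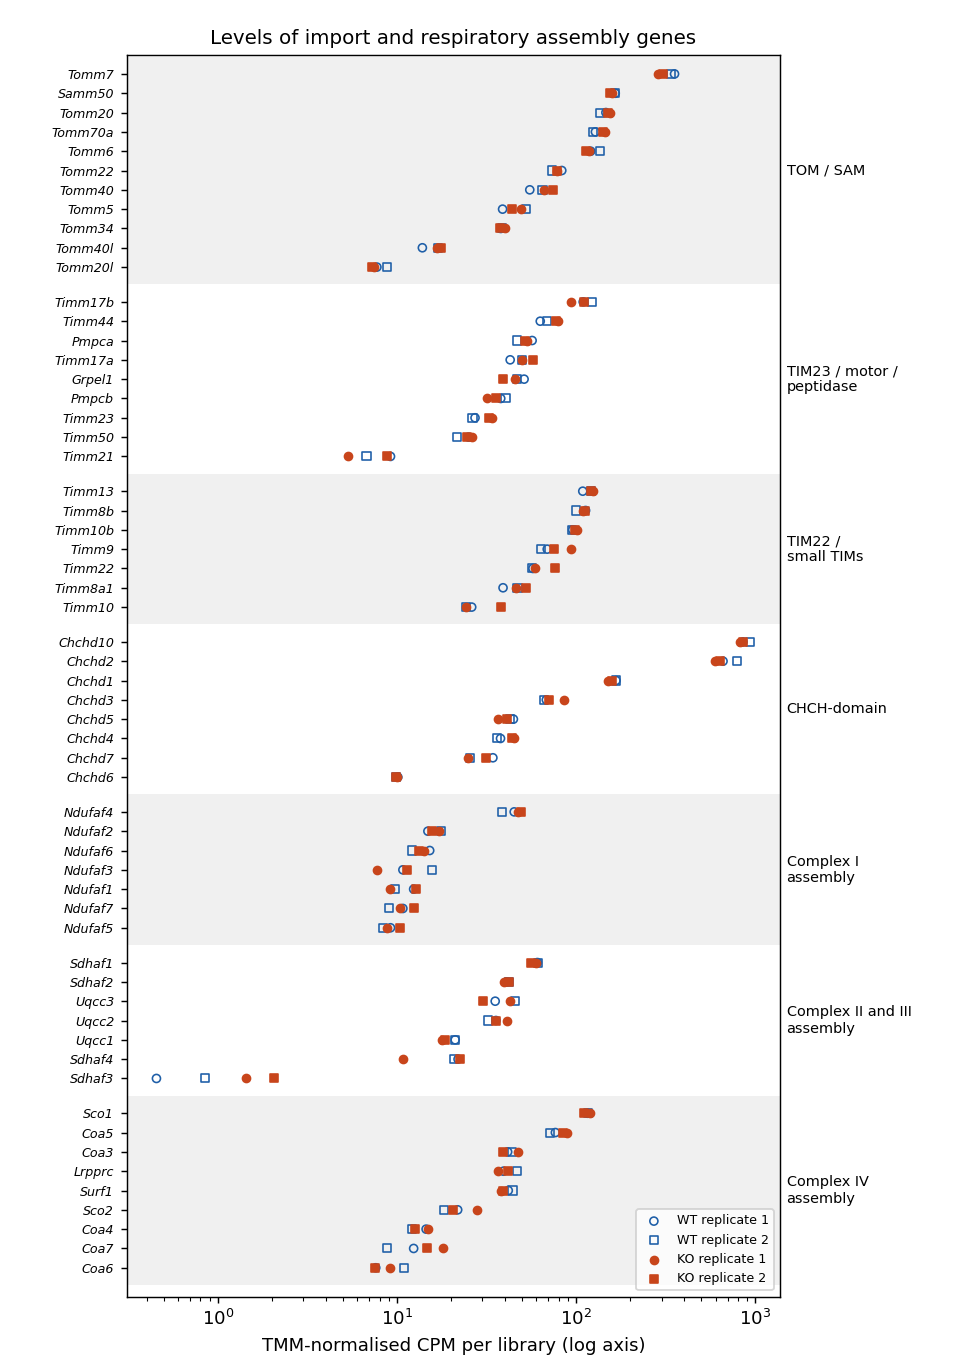
TMM-normalised CPM of the 58 tested genes (log axis) in each library, with WT libraries as open and KO libraries as filled symbols, grouped by role and ordered by mean level. Chchd10 and Chchd2 stand highest and Sdhaf3 lowest, and WT and KO symbols lie close together in most rows.

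No import or assembly gene passed the genotype test, which was the quasi-likelihood F test of edgeR with p-values adjusted after Benjamini and Hochberg over all 11464 tested genes. Of the 58 tested members 0 rose and 0 fell, where 1.45% of all tested genes rose, 1.21% fell and 2.66% (305 genes) did either. DESeq2 also called 0 members, and limma-voom called 1, Chchd2. The smallest adjusted p of a member in edgeR was 0.0854, for Chchd2. At an unadjusted p under 0.05, 3 members were higher and 2 lower in KO (8.62% of them in all), against 6.8% higher, 6.68% lower and 13.5% in all among tested genes. WT and KO libraries did not overlap for 28 of the 58 members (48.3%), with KO above in 15 and below in 13, against 43.4% of all tested genes, 21.5% above and 21.9% below. The median log2 fold change of KO over WT was 0.02 for the members and 0.00 for all tested genes, and 33 members lay above 0 and 25 below.

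Against the spread among these libraries, the data limit how large a missed difference could be. Since part or all of that spread could be technical, the intervals do not bound a difference between WT and KO mice. The 95% interval of the fold change, taken gene by gene with no allowance for their number, stayed inside 1.5-fold in either direction for 41 of the 58 members and inside 2-fold for 55. The 3 genes whose interval reached past 2-fold were Sdhaf3, Coa7 and Ndufaf3, which are among the less abundant members. Standard errors of the log2 fold change had a median of 0.152 for members and 0.202 for all tested genes. Replicates of a genotype differed by a median factor of 1.11 in WT and 1.09 in KO. Factors over 1.3 occurred for 7 members in WT and 8 in KO, the largest being 2.08 for Sdhaf4 in KO and 1.86 for Sdhaf3 in WT.

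**Figure D2:**
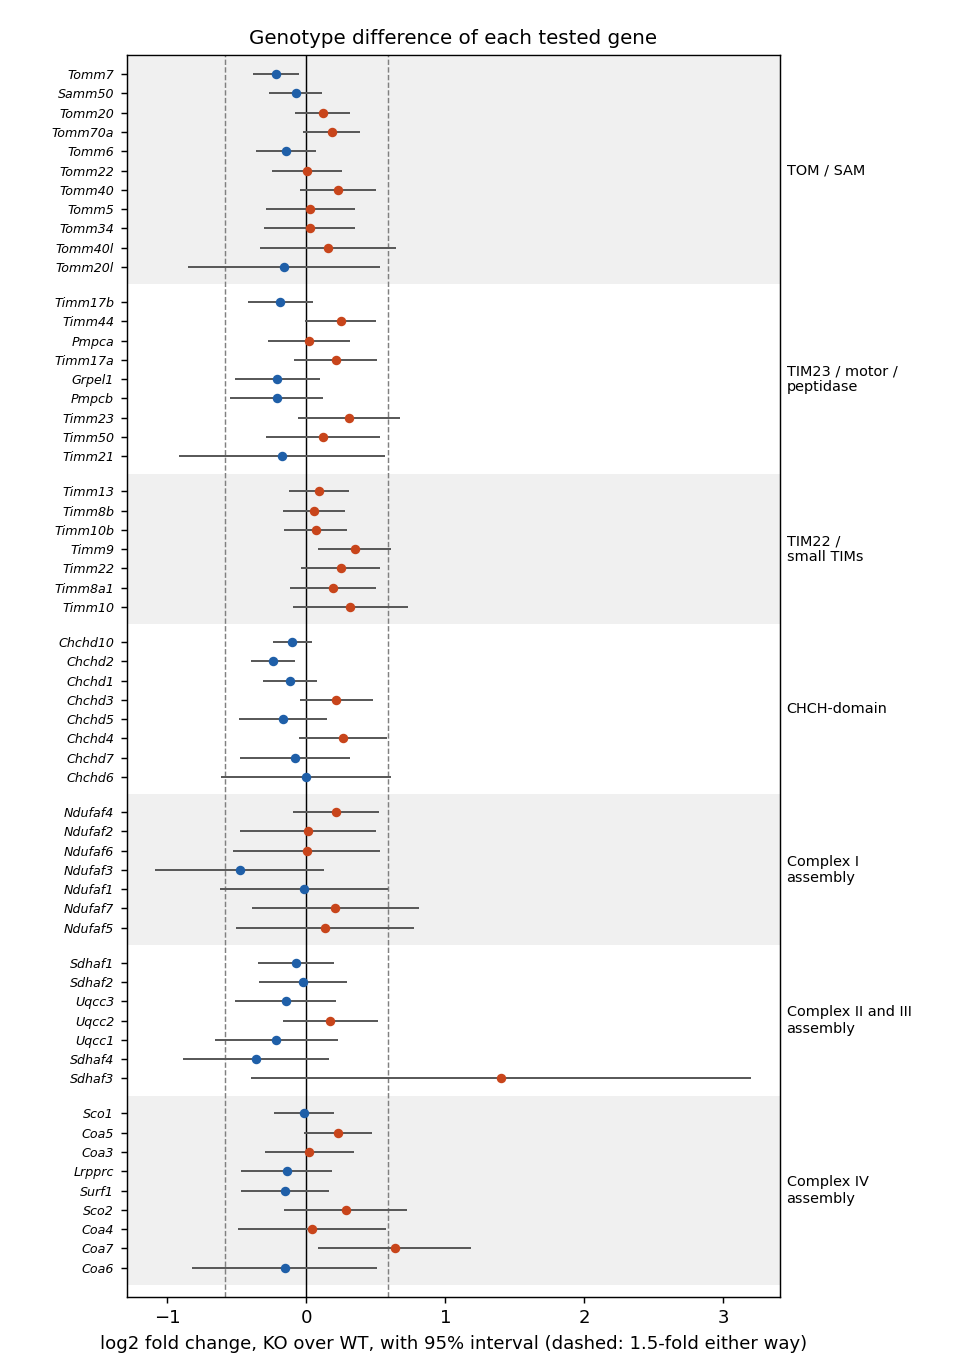
Log2 fold change of KO over WT for each tested gene with its 95% interval, grouped by role, with dashed lines at 1.5-fold either way. For 41 of the 58 genes the interval stays between the dashed lines, and the widest belongs to Sdhaf3.

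The genes listed under TOM and SAM, Tomm34 among them, lay on both sides of 0, with none past the test. Tomm7, which modulates the stability of the complex, stood at 354.2 and 338.0 CPM in WT and 287.8 and 306.5 in KO. Both KO libraries were below both WT libraries, and the log2 fold change was -0.22 (SE 0.0771, adjusted p = 0.143). Tomm6, another small subunit, was at 120.6 and 135.1 against 117.5 and 113.4 CPM. Tomm70a, the receptor for carrier proteins that hands them over from cytosolic chaperones, was at 128.1 and 123.6 CPM in WT and 145.0 and 140.4 in KO (0.18, SE 0.0966, adjusted p = 0.422). Here both KO libraries were the higher ones. The presequence receptor Tomm20 was at 146.6 and 135.8 CPM against 155.1 and 150.9, and the channel Tomm40 at 55.1 and 64.9 against 65.9 and 74.5, also without overlap. The small subunit Tomm5 was at 38.9 and 52.5 CPM against 49.3 and 44.0. The central receptor Tomm22 differed least, at 83.2 and 73.0 CPM against 78.6 and 78.0. Samm50, the core of the SAM complex that inserts barrel proteins, was at 165.3 and 164.5 CPM against 157.8 and 154.8. Of the 11 tested genes of this group 7 lay above 0 and 4 below (6 and 5 with upper quartile scaling, 4 and 7 without KO replicate 1), and their summed level was 1151 and 1152 CPM in WT and 1121 and 1125 in KO.

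The TIM23 group showed a similar mixture. Timm44, which anchors the import motor to the channel, was at 63.1 and 68.4 CPM in WT and 79.2 and 77.1 in KO (log2 fold change 0.25, SE 0.122, adjusted p = 0.37). The channel subunit Timm23 was at 27.3 and 26.4 CPM in WT and 33.7 and 32.6 in KO (0.31, SE 0.176, adjusted p = 0.471). For both genes the KO libraries were higher and did not overlap WT. Timm23 is uncertain, because 95.7% of the 50-base stretches in the last 300 bases of its transcripts also occur in transcripts of other genes, among them Gm10273. The 2 Timm17 paralogs, alternative partners of Timm23 in the channel, differed in sign, with Timm17a at 42.8 and 49.6 CPM in WT against 49.7 and 57.5 in KO, and Timm17b at 109.5 and 123.3 against 93.7 and 111.0. Timm17b was the more abundant of the pair in every library. The nucleotide exchange factor Grpel1 was at 51.2 and 46.8 CPM against 45.5 and 39.3, and its 3' end lies wholly within transcripts of Tada2b on the other strand. Of the presequence peptidase, the catalytic subunit Pmpcb was at 38.0 and 40.3 CPM against 32.0 and 35.6, while its partner Pmpca was at 56.8 and 46.7 against 53.0 and 51.8. Pmpca shares 50% of the 50-base stretches at its 3' end with Inpp5e on the other strand. In all, 5 of 9 genes lay above 0 and 4 below, with a summed level of 423.0 and 429.9 CPM in WT and 418.2 and 438.1 in KO.

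All 7 tested genes of the TIM22 and small TIM group had a higher mean in KO, although 0 of the 7 passed the test. Among all tested genes 5738 of 11464 had a log2 fold change above 0. No other role group had all its genes on the same side of 0, and the group as a whole was not tested. Timm9, which forms the main chaperone ring of the intermembrane space with Timm10, was at 69.0 and 63.7 CPM in WT and 93.1 and 75.7 in KO. Its KO libraries were the higher ones and its log2 fold change was 0.35 (SE 0.126, adjusted p = 0.164). It was 0.19 without KO replicate 1 and 0.49 without KO replicate 2. Timm9 (chr12:71123173-71136684, GRCm38, minus strand) and Tomm20l on the opposite strand overlap tail to tail by 49 bases, and because the sources do not say whether strand was used in counting, the reads of either gene could include some of its neighbour's. Tomm20l was at 7.73 and 8.76 CPM in WT and 7.46 and 7.28 in KO. Timm22, the channel for carrier proteins, was at 57.4 and 56.4 CPM against 58.8 and 76.3 (0.25, SE 0.136, adjusted p = 0.446), so that the difference sat mainly in KO replicate 2, without which it was 0.05. Without KO replicate 1 it was 0.42. Timm10 showed the same, at 26.1 and 24.2 CPM in WT and 24.4 and 38.3 in KO. Timm8a1, Timm8b, Timm13 and Timm10b had log2 fold changes of 0.19, 0.05, 0.09 and 0.07. The group's median was 0.19, and its summed level was 509.0 and 508.9 CPM in WT and 556.5 and 574.0 in KO. With all 4 libraries these 7 genes stayed above 0 under every scaling. The scalings moved the median of all tested genes only between -0.01 and 0.02, too little to change the sign of a value of 0.05. Without WT replicate 2, 6 of 7 lay above 0, and without KO replicate 2 it was 6 of 8, Timm8a2 included, with a median of 0.07. The median was 0.11 without WT replicate 1. In the same KO libraries 8 of 10 B cell markers fell, as did 1 of 10 CD8 T and NK cell markers (Gzma) and 1 of 4 myeloid markers (Fcer1g).

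Genes of the CHCH family held the 2 most abundant members, Chchd10 and Chchd2, both of which were lower in KO without passing the test. Chchd2, a paralog of Chchd10 with roles in cristae and in the response to stress, was at 660.6 and 789.1 CPM in WT and 595.9 and 633.7 in KO. The KO libraries lay below WT, and the log2 fold change was -0.24 (SE 0.074, adjusted p = 0.0854), with a 95% interval of the fold from 0.764 to 0.941. Its call depended on the analysis, and it was called lower in 4 of 13 alternatives, with adjusted p between 0.000547 and 0.712 over all of them. Without WT replicate 1 the log2 fold change was -0.36, and without WT replicate 2 it was -0.11, the WT libraries being the ones that differed most from each other. In its last 300 bases 23.5% of 50-base stretches are shared with other transcripts such as Gm6222. Chchd10 was at 853.6 and 937.9 CPM in WT and 819.1 and 849.8 in KO (log2 fold change -0.10). Chchd1, a protein of the mitochondrial ribosome, was at 167.0 and 167.9 CPM against 149.9 and 158.2. Chchd4, the oxidative import receptor, lay on the other side, at 37.8 and 36.1 CPM in WT and 44.9 and 44.0 in KO (0.27, SE 0.152, adjusted p = 0.47), as did Chchd3, a cristae organising protein, at 68.2 and 66.0 against 85.1 and 70.7. Chchd6, its partner in the same complex, had 10.1 and 9.82 CPM in WT and 10.0 and 9.89 in KO. In all 2 of 8 genes lay above 0 and 6 below, and the summed level was 1876 and 2075 CPM in WT and 1766 and 1839 in KO.

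Complex I assembly factors were low and their genotypes mostly overlapped. Ndufaf4, an early factor of the matrix arm, was the most abundant, at 45.1 and 38.5 CPM in WT and 47.6 and 49.4 in KO, the difference being 0.21 on the log2 scale (SE 0.148, adjusted p = 0.583), 0.10 without WT replicate 2 and 0.33 without WT replicate 1. Ndufaf3, its partner in the same step, lay on the other side of 0, at 10.8 and 15.7 CPM against 7.77 and 11.3 (-0.48, SE 0.294, adjusted p = 0.509). Its replicates differed by a factor of 1.46 in each genotype and the libraries overlapped. The value was -0.18 without WT replicate 2, -0.23 without KO replicate 1, -0.72 without WT replicate 1 and -0.77 without KO replicate 2. Ndufaf1, Ndufaf2 and Ndufaf6 had log2 fold changes of -0.02, 0.01 and 0.00, and Ndufaf5 and Ndufaf7 of 0.13 and 0.21. The 95% interval excluded a 1.5-fold lower level for 5 of the 7 genes and a 1.5-fold higher level for 5. The summed level of the group was 118.4 and 111.1 CPM in WT and 114.9 and 125.1 in KO.

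The factors of complexes II and III were likewise without a call. Sdhaf3, which protects the iron-sulfur subunit of succinate dehydrogenase, had the largest fold change of all members and the lowest level. It had 4 and 8 counts in WT and 14 and 19 in KO, or 0.455 and 0.845 CPM against 1.43 and 2.07. The KO libraries were higher, and the log2 fold change of 1.40 had an SE of 0.881 (adjusted p = 0.523). Sdhaf3 (chr6:6956004-7042979, GRCm38) lies 1459695 bases from Pdk4, closer than any of the other members on that chromosome, which are Chchd3, Chchd4 and Chchd6 at 27294667 bases or more. The part of the targeted region in this value was not tested. Sdhaf4, which helps the flavoprotein subunit of the same enzyme to mature, had 21.9 and 20.8 CPM in WT and 10.8 and 22.5 in KO (-0.36, SE 0.254, adjusted p = 0.592). Only KO replicate 1 was low, and without it the log2 fold change was 0.07. Sdhaf1 and Sdhaf2 were at 60.8 and 61.2 against 59.8 and 56.0 CPM, and at 40.9 and 42.3 against 39.5 and 42.2. Of the complex III factors, Uqcc1 was at 21.1 and 21.1 CPM in WT and 17.8 and 18.6 in KO, Uqcc2 at 35.7 and 32.3 against 40.9 and 35.7, and Uqcc3 at 35.3 and 45.6 against 42.7 and 30.2, with only Uqcc1 free of overlap.

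Among the complex IV factors Coa7 had the largest difference. Coa7, a cytochrome c oxidase assembly factor of the intermembrane space, was at 12.4 and 8.76 CPM in WT and 17.98 and 14.8 in KO. Both KO libraries were higher, the log2 fold change being 0.63 (SE 0.266, adjusted p = 0.266). It was 0.40 without WT replicate 2 and 0.90 without WT replicate 1. Coa5 was at 76.6 and 71.2 CPM against 88.4 and 84.4 (0.23, SE 0.117, adjusted p = 0.403), again without overlap. The copper chaperone Sco1 was at 116.0 and 117.1 CPM in WT and 119.6 and 110.2 in KO, an interval from 0.853 to 1.14 on the fold scale. Its paralog Sco2 was at 21.8 and 18.3 CPM against 28.1 and 20.6, but the last 300 bases of its transcripts occur entirely in transcripts of Ncaph2 on the other strand, so the value is uncertain. Surf1, which acts early in the maturation of the core subunit, was at 41.8 and 44.1 CPM against 38.3 and 39.0. Lrpprc, which stabilises mitochondrially encoded messages, was at 39.3 and 46.7 CPM in WT and 36.5 and 41.5 in KO. The group had 5 of 9 genes above 0 and 4 below, with summed levels of 371.6 and 373.2 CPM in WT and 400.5 and 369.7 in KO.

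**Figure D3:**
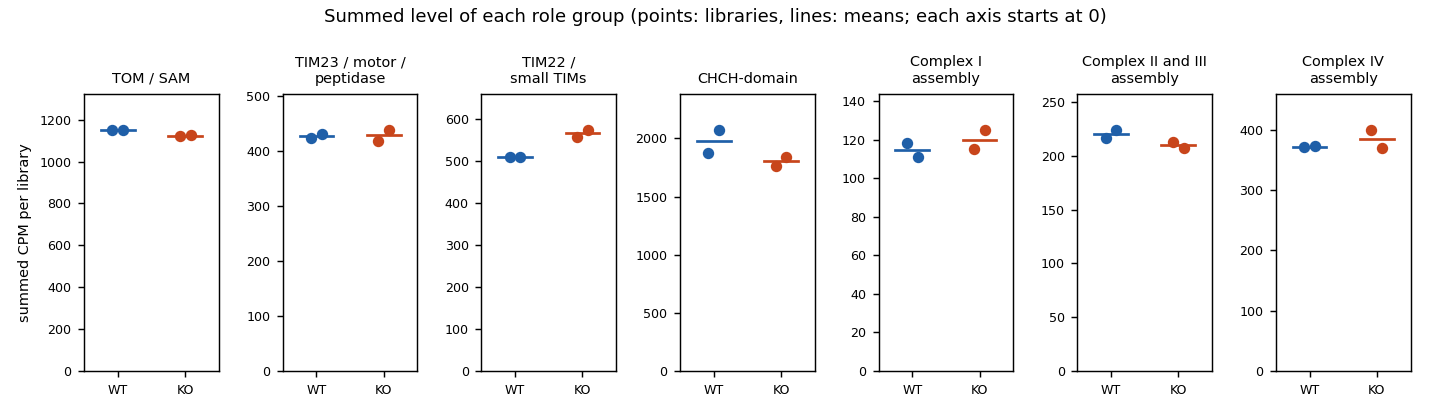
Summed CPM of each role group per library (points) with the genotype mean (lines), each vertical axis starting at 0. KO libraries lie above WT for TIM22 and small TIM genes and below WT for the TOM and SAM, the CHCH and the complex II and III groups, and overlap for the others.

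A pair of low members could not be tested. Timm8a2, a close relative of Timm8a1, had 15 counts in WT replicate 2 and 0 in each of the other libraries. Tomm6os, a transcript antisense to Tomm6 that the symbol rule takes in, had 4 and 6 counts in WT and 0 and 0 in KO, where 0 counts allow up to 0.307 and 0.326 CPM in KO replicates 1 and 2. Tomm6 itself shares 77.7% of the 50-base stretches at its 3' end with other gene models, chiefly the read-through model Gm21981. Over all 60 genes, 43 shared no such stretch with another gene, and 14 shared more than 10%. By annotated positions, 18 of the 60 are overlapped by another gene within their last 300 bases. Stretches of 50 bases miss shorter overlaps, such as the 48 bases of Ndufaf3 with Impdh2 and the 41 of Tomm70a with Nit2. Both of these neighbours lie on the opposite strand.

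Related genes outside the symbol rule were compared from lists of the same pathways. Of 26 other import, folding and cristae genes 0 rose and 0 fell in edgeR, DESeq2 or limma-voom, with 1 higher and 1 lower in KO at an unadjusted p under 0.05 in edgeR and a median log2 fold change of -0.04. Of 35 other respiratory assembly genes 1 rose and 1 fell, where 1.45% of all tested genes rose and 1.21% fell. At an unadjusted p under 0.05 in edgeR, 4 of the 35 were higher and 5 lower in KO (25.7% in all), against 13.5% of all tested genes. The median of the 35 was 0.06, or -0.06 without KO replicate 1. Tmem70, an assembly factor of ATP synthase, rose from 38.3 and 42.7 CPM in WT to 64.1 and 55.3 in KO (0.56, SE 0.143, adjusted p = 0.0231). Its call was lost with DESeq2 (0.0553), without WT replicate 1 (0.16), without WT replicate 2 (0.0616) and without KO replicate 1 (0.299). Higd1a, a hypoxia-inducible protein that associates with complexes III and IV, fell from 111.4 and 116.8 CPM to 87.2 and 87.5 (-0.39, SE 0.107, adjusted p = 0.0423). Its call was lost without any 1 of the libraries, with adjusted p from 0.0776 to 0.265, with DESeq2 (0.0679), with library size only (0.0687) and with a replicate block (0.0673). The mitochondrial chaperones that receive imported proteins were not called, with Hspa9 at 558.0 and 540.8 CPM in WT and 628.1 and 603.6 in KO, Hspd1 at 390.0 and 408.2 against 442.2 and 398.1, and Hspe1 at 209.1 and 220.1 against 228.5 and 229.5.

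The structural subunits that the assembly factors act on leaned more to one side than the factors did. Of 79 tested genes listed as nuclear-encoded subunits of the respiratory chain and ATP synthase 4 fell and 0 rose. Among all tested genes 1.21% fell and 1.45% rose. At an unadjusted p under 0.05 in edgeR, 18 of the 79 were lower and 0 higher in KO (22.8%), against 13.5% of all tested genes in either direction. Of the 79, 63 (79.8%) lay below 0 and the median was -0.12. Below 0 lay 25 of 58 import and assembly genes (43.1%, median 0.02) and 49.9% of all tested genes. The subunits that fell were Ndufv3 and Ndufc1 of complex I (-0.48 and -0.43), Uqcrh of complex III (-0.30) and Atp5h of ATP synthase (-0.32), with adjusted p of 0.00171, 0.0366, 0.0298 and 0.0335. Only 1 subunit fell without WT replicate 2, without KO replicate 1, without KO replicate 2 or with library size only. The summed level of the subunits was 13550 and 13550 CPM in WT and 12690 and 12600 in KO. The difference between these lists was not tested, and the lists were chosen with earlier results of these data known. The subunit list also holds Atp5s and Atp5sl, which are not established structural subunits. Both were lower in KO without a call (-1.28 and -0.38). Subunits are also more abundant, with a median of 126.7 CPM against 41.3. Among the members themselves, the 12 with a mean of at least 100 CPM had 8 below 0, and the 46 under that level had 17 below 0, where all tested genes had 53.6% and 49.2% below 0 in these ranges. This division by level was chosen after the values were seen.

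**Figure D4:**
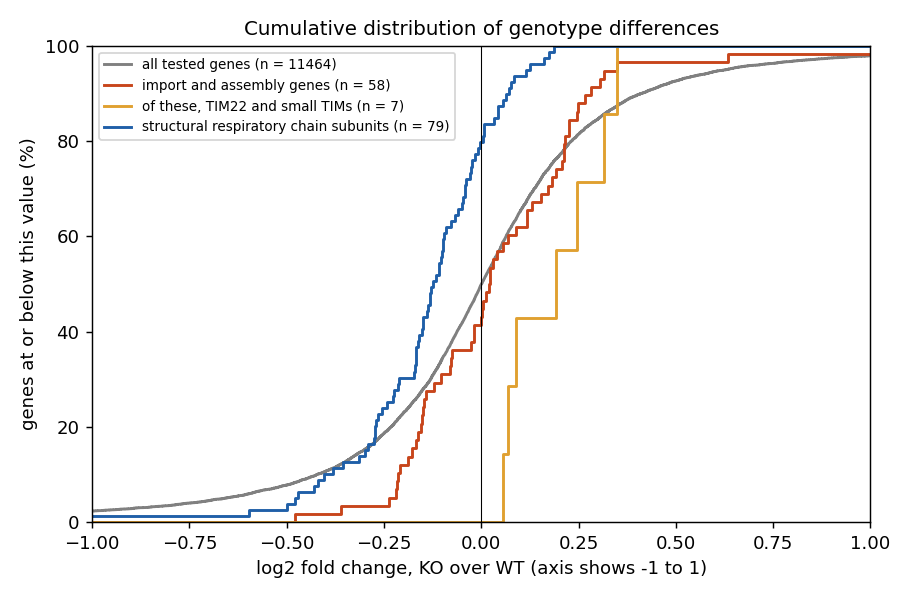
Cumulative share of genes (vertical axis, %) at or below each log2 fold change of KO over WT (horizontal axis, shown from -1 to 1), for all 11464 tested genes, the 58 import and assembly genes, their 7 TIM22 and small TIM genes, and 79 genes listed as structural subunits. The import and assembly curve crosses 0 close to that of all genes, while 79.8% of the genes listed as structural subunits lie below 0.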

How the data were processed

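Transcript 3' ends were sequenced in 2 WT and 2 KO libraries. For each library the authors deposited a table of raw read counts by gene symbol. Bowtie2, edgeR and the mm10 build were used, per the submitters' processing notes, with no role or version. The counting tool, annotation, use of strand and handling of multi-mapping reads are not given in these sources, so genes that overlap or have near copies may share reads. Replicates were kept in separate tables.

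Counts of 35 symbols listed more than once (0 of them members) were summed. Genes passing edgeR's filterByExpr (11464) were tested in R 4.3.3 by the quasi-likelihood F test (two-sided) of edgeR 4.0.16, with TMM scaling, genotype as the only term and Benjamini-Hochberg adjustment over all tested genes, with calls at adjusted p under 0.05. Levels are CPM on TMM-scaled library totals. The SE is the size of the log2 fold change divided by the square root of F, and 95% intervals use the t distribution on the test's degrees of freedom. Total counts of 8837810 to 9739624 put the floor of 3 counts at 0.307 to 0.341 CPM, and floors cover counting error only, since no molecular identifiers are stated.

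Alternatives were DESeq2 1.42.0, limma-voom (limma 3.58.1), other scalings, other filters, a replicate block, each library left out, and Rn45s left out. The test was tested on simulated data. The members and lists were chosen with earlier results of these data known. Every called member and the 2 smallest p of each role group are given with their test, and called genes of related lists, at most 4 per list. Positions and 3' overlaps come from GENCODE vM21 (GRCm38, the assembly of mm10), and promoters from RefSeq. Protein sequences were not used here.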

Additional observations from a re-analysis of the deposited data

How the results depend on the processing

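The absence of a call held in every alternative for rises (0 members higher in KO throughout). For falls it held in 9 of 13 alternatives, and 1 member, Chchd2, was called lower with limma-voom (1, adjusted p = 0.0439), with no filter (1, adjusted p = 0.0203), with the stricter filter of 10 CPM in 2 libraries (1, adjusted p = 0.0411) and without WT replicate 1 (adjusted p = 0.000547), so that the counts without 1 library each ranged from 0 to 1. The cause was not tested. The members' median log2 fold change of 0.02 was 0.0079 with upper quartile scaling, 0.042 with library size only, 0.014 with no filter, 0.014 with the stricter filter, and between 0.018 (without KO replicate 1) and 0.0602 (without WT replicate 1) when 1 library was left out. All genes called, 305 with 4 libraries, ranged from 170 (without KO replicate 1) to 293 with 1 library left out, and numbered 184 without WT replicate 2. Sdhaf4, at -0.36 with 4 libraries, ranged from -0.98 (without KO replicate 2) to 0.0745 (without KO replicate 1) and so changed sign. No pairing of the libraries by replicate number was seen, as the deviations of WT 1 and KO 1 from their genotype means correlated at 0.011. This is a single correlation over genes and cannot exclude a pairing. With a replicate block 260 genes were called, with 0 members higher, 0 lower and a median of 0.019. At 4 to 19 counts per library, the interval of Sdhaf3 reached from -0.39 to 3.19 on the log2 scale.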
